A study of Drosophila melanogaster with 8 samples.

Results

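The corpus cardiacum is the small cluster of neuroendocrine cells at the base of the larval ring gland, and the genes described here are those of its hormones and of the enzymes that turn a peptide precursor into a finished hormone. The 9 genes were chosen by name, for their known roles, from the 17558 genes in the count table. They are Akh and Lst (peptide hormones), gl (a transcription factor), amon and svr (proteases), Phm, Pal1 and Pal2 (amidating enzymes) and Sur (a channel subunit). All 9 passed the filter on low counts that left 9317 genes to be tested.

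Ring glands were dissected from larvae at the wandering stage of the third instar, of wild type (w[1118]) and of kdm5[140], a null allele of the lysine demethylase gene Kdm5, grown at 25 °C. Each genotype had 4 libraries of polyA-selected RNA, and each library came from 80 pooled glands of males and females in equal share. The paper's methods give the age as about 5 days after egg laying for wild type and about 7 days for Kdm5[140], so that age and genotype cannot be told apart. Between 17131110 and 19494692 reads per library were counted on genes.

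Adipokinetic hormone (AKH) acts in flies much as glucagon does in mammals and mobilizes stored sugar and fat. Like most insect neuropeptides it is made as a precursor, carried into the secretory pathway by a signal peptide, cut at basic residues by a prohormone convertase, trimmed by a carboxypeptidase and amidated at its C terminus. Amidation takes 2 steps, a hydroxylation by PHM that needs copper and ascorbate, and a cleavage by the lyase PAL. The finished peptide is stored in dense-core vesicles until calcium entry releases it. The lowercase gene phm, the steroidogenic enzyme phantom of the prothoracic gland, is a different gene from Phm.

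Levels are given as CPM, counts scaled to the size of the library after TMM normalization, in the order of replicates 1 to 4. Genotypes were compared with edgeR's quasi-likelihood test, with Benjamini-Hochberg adjustment over all tested genes (FDR) and a threshold of 0.01. Log2 fold changes are Kdm5[140] over wild type, so a positive value means a higher level in the libraries labelled Kdm5[140]. The transcript of the targeted gene, listed as lid, ranged from 144 to 172 CPM in wild type and from 193 to 200 CPM in the libraries labelled Kdm5[140], and was thus higher, not lower, under that label (log2 fold change of 0.35, SE 0.07, edgeR FDR = 0.00437). That call was kept in 2 of 8 fits without 1 library (edgeR FDR up to 0.0188) and was lost with an offset for gene length (0.22, edgeR FDR = 0.0586). Counts on a gene do not show whether its transcript is intact. Directions given below compare the libraries as labelled.

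Among the 9 genes, Phm and Pal1 were lower and Pal2 was higher in the libraries labelled Kdm5[140], and the other 6 did not pass the threshold. The 3 calls stood against a background of 17.5% of all tested genes called in either direction, 7.91% of them called higher and 9.62% called lower. The same 3 genes were the ones whose libraries did not overlap between genotypes, which held for 33.2% of all tested genes. The median log2 fold change of the 9 genes was 0.03, beside 0.02 for all tested genes. The hormone genes themselves, Akh and Lst, had overlapping groups.

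**Figure D1:**
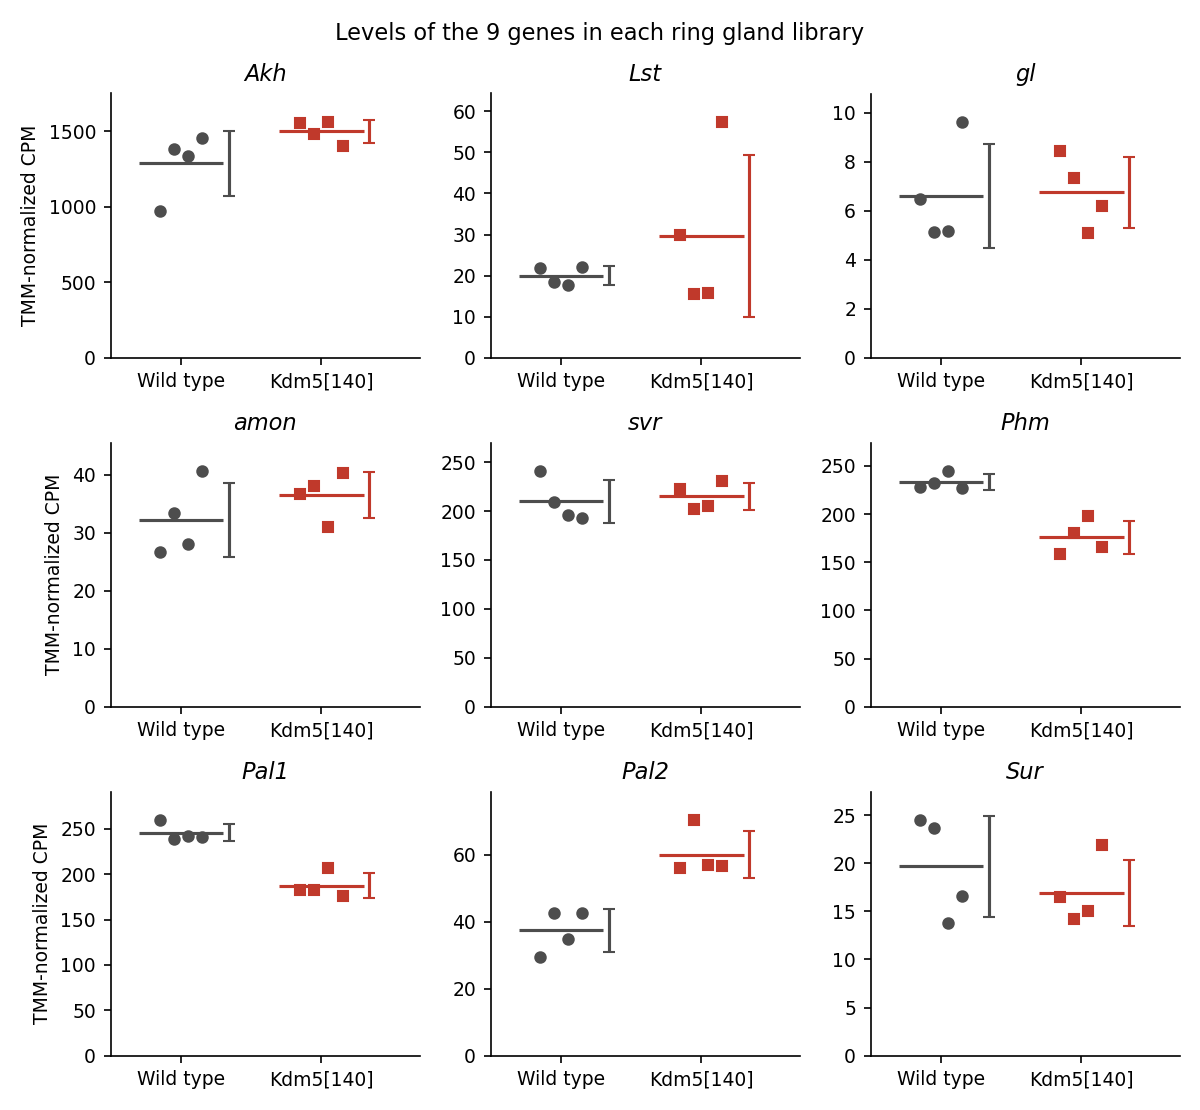
TMM-normalized CPM of each gene in the 4 wild-type (circles) and 4 Kdm5[140] (squares) libraries. Horizontal lines are means, bars beside them 1 SD, and each panel has its own vertical axis from 0. Phm and Pal1 lie lower and Pal2 higher in Kdm5[140] without overlap, while Lst stands at 57.4 CPM in 1 Kdm5[140] library and at 29.9 CPM or less in the other 7 libraries.

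Akh (FBgn0004552) encodes the AKH precursor and lies on the plus strand of 3L (dm6, 4141467 to 4142070), with 1 annotated transcript of 2 exons. Wild-type libraries had 975, 1383, 1335 and 1454 CPM. The Kdm5[140] libraries had 1555, 1481, 1563 and 1401 CPM. Wild-type replicate 1 was the lowest of the 8 libraries, and the Kdm5[140] libraries lay close together, 3 of them above every wild-type library and 1 below wild-type replicate 4, so that the groups overlapped. The means were 1287 ± 213.7 CPM and 1500.0 ± 75.6 CPM (SD, n = 4 each), and the log2 fold change was 0.22 (SE 0.12, 95% interval −0.04 to 0.48, edgeR FDR = 0.182). Without wild-type replicate 1 the value was 0.11 (edgeR FDR = 0.281). In bulk RNA from a gland in which the corpus cardiacum is a minority, fewer cells of a type and less RNA per cell cannot be told apart.

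Per length, Akh was by far the most abundant of the 9 transcripts, with a mean level of 2401 ± 398.7 RPKM in wild type and 2798 ± 141.1 RPKM in Kdm5[140] (SD, n = 4 each). This placed it 37th among the 17558 genes in wild type and 18th in Kdm5[140] by mean RPKM. The prothoracic gland makes up most of the ring gland, and the summed level of its 8 marker genes was lower in Kdm5[140], from 39810 to 51721 CPM against 51790 to 56844 CPM in wild type. The gap was narrow, since Kdm5[140] replicate 3 held the 51721 CPM. Log2 fold changes of 3 of the 8 markers were above 0 and those of 5 below 0. Of those markers, which are enzymes of ecdysone synthesis and cholesterol transport, spok was lower (log2 fold change of −0.83, edgeR FDR = 0.000357), dib (0.56, edgeR FDR = 0.00439) and sro (1.01, edgeR FDR = 0.000246) were higher, and the other 5 were not called. The call of dib was lost without wild-type replicate 2, 3 or 4 or Kdm5[140] replicate 2 (edgeR FDR up to 0.0153). Of 5 corpus allatum markers, Fpps was lower (−0.49, edgeR FDR = 0.00262) and jhamt, the juvenile hormone methyltransferase, was not called (−0.22, edgeR FDR = 0.146), and their summed level overlapped. Fpps missed the threshold without Kdm5[140] replicate 2 (edgeR FDR = 0.0110). No glia, fat body, muscle and heart, hemocyte or salivary gland marker and none of 9 brain neurosecretory peptides was called by edgeR, and each of these 6 sums overlapped between genotypes. Of these 32 markers, 3 had an unadjusted p under 0.05 in edgeR, for which the share over all genes was not taken. DESeq2 called 1 (Act57B, a muscle actin), beside 21.8% of the 11206 genes to which it gave an FDR. limma voom called 0, beside 1587 of 9317 genes. The edgeR share was 17.5% of all tested genes. The part of the difference in summed prothoracic gland markers in the levels of corpus cardiacum genes was not tested.

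Lst (FBgn0034140, listed in the count table under the older symbol CG8317) encodes limostatin, a peptide of the corpus cardiacum that suppresses insulin secretion in adult flies. It lies on the minus strand of 2R (dm6, 16574579 to 16576586), with 3 annotated transcripts in a single merged exon. Wild-type libraries had 21.8, 18.4, 17.6 and 22.0 CPM. The Kdm5[140] libraries had 29.9, 15.6, 15.8 and 57.4 CPM. Replicate 4 of Kdm5[140] was the highest and replicates 2 and 3 were the lowest of all 8, so that the Kdm5[140] libraries enclosed the whole wild-type range.

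The log2 fold change of Lst was 0.57 with a wide 95% interval of −0.43 to 1.57 (SE 0.43, edgeR FDR = 0.348). It rested on 1 library, since without Kdm5[140] replicate 4 it was 0.03 (edgeR FDR = 0.933). The coefficient of variation of Lst was 11.4% in wild type and 66.4% in Kdm5[140], and the latter was larger than that of any other of the 9 genes in either genotype. Kdm5[140] replicate 4 also had the highest summed level of the 6 fat body markers, 5708 CPM, against 811 to 3715 CPM in the other 7 libraries. Lsp1beta (2102 CPM), Lsp1gamma (1859 CPM) and Lsp2 (223 CPM) were highest in that library. Fbp1 was highest in Kdm5[140] replicate 1 (2262.5 CPM), and Lsp1alpha (259 CPM) and Fbp2 (199 CPM) in wild-type replicate 1. The hemocyte markers summed to 308 CPM in Kdm5[140] replicate 4 and to 338 CPM in wild-type replicate 2, against 106 to 142 CPM in the other 6. Whether either source of RNA took part in the Lst value was not tested.

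gl (FBgn0004618) encodes Glass, a zinc finger transcription factor known from photoreceptor development and required for the formation of the corpus cardiacum. It lies on the minus strand of 3R, with 3 annotated transcripts. Wild-type libraries had 6.47, 5.12, 5.17 and 9.62 CPM. Libraries labelled Kdm5[140] had 8.43, 7.34, 5.08 and 6.17 CPM. Both genotypes covered about the same range, and the highest library was wild-type replicate 4.

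With 84 to 183 counts per library, gl was the most thinly counted of the 9 genes. Its log2 fold change was 0.03 (SE 0.25, 95% interval −0.52 to 0.59, edgeR FDR = 0.934), and the sign changed in 4 of the 8 fits without 1 library and with an offset for gene length (−0.06). Of the listed markers of the eye disc and of photoreceptors, ro, boss and ninaE stayed under 1 CPM in every library and chp under 6 CPM. The exception was sev, a receptor tyrosine kinase of the R7 photoreceptor, which had 484 to 564 CPM in wild type and 353 to 427 CPM in Kdm5[140] (log2 fold change of −0.42, SE 0.08, edgeR FDR = 0.00374). The call of sev was lost without wild-type replicate 2, wild-type replicate 4 or Kdm5[140] replicate 2 (edgeR FDR up to 0.0156).

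Akh, Lst and gl, chosen by name as markers of the corpus cardiacum, were counted in all 8 libraries. Bulk RNA does not show which cells these transcripts came from, so their presence is no check of the corpus cardiacum label. Relative to Akh, and per length, the other markers did not separate the genotypes. Lst amounted to 0.427 ± 0.116 RPKM per 100 RPKM of Akh in wild type and 0.539 ± 0.387 in Kdm5[140] (SD, n = 4 each). gl amounted to 0.0822 ± 0.0259 RPKM per 100 RPKM of Akh in wild type and 0.0711 ± 0.0148 in Kdm5[140] (SD, n = 4 each). Both ratios overlapped between genotypes.

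amon (FBgn0023179) encodes the prohormone convertase of the PC2 type, the protease that cuts neuropeptide precursors at basic residues. Its 12 exons lie on the minus strand of 3R. Wild-type libraries had 26.7, 33.5, 28.0 and 40.7 CPM. The Kdm5[140] libraries had 36.7, 38.1, 30.9 and 40.3 CPM. The genotypes overlapped, with both the lowest and the highest library in wild type. The log2 fold change was 0.18 (SE 0.14, 95% interval −0.13 to 0.49, edgeR FDR = 0.354). Its level per 100 RPKM of Akh was close in both genotypes, 0.338 ± 0.0434 RPKM in wild type and 0.329 ± 0.0505 RPKM in Kdm5[140] (SD, n = 4 each).

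svr (FBgn0004648) encodes silver, a carboxypeptidase D that removes the basic residues left by the convertase, and lies on the plus strand of X with 11 annotated transcripts. Wild-type libraries had 241, 209.7, 196 and 192 CPM. Libraries labelled Kdm5[140] had 222, 202, 205 and 231 CPM. The Kdm5[140] libraries fell inside the wild-type range. The log2 fold change was 0.03 (SE 0.08, 95% interval −0.15 to 0.22, edgeR FDR = 0.780), the narrowest of the 6 intervals that include 0. With an offset for gene length the value was −0.10 (edgeR FDR = 0.430). Antisense RNAs overlap 817 bases of its 8583 exonic bases, and the highest of them reached 1.69 CPM in any library.

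The amidating enzymes were the members called between genotypes, which does not show that the other 6 were unchanged. Bulk RNA does not show which cells of the gland their transcripts came from, and their source was not tested. Phm (FBgn0019948), the copper-dependent monooxygenase of the first step, lies on the minus strand of 2R (dm6, 23985175 to 23988455) with 8 exons. Wild-type libraries had 229, 232, 245 and 227 CPM. The Kdm5[140] libraries had 159, 181, 198 and 166 CPM. Every wild-type library lay above every Kdm5[140] library, and the wild-type libraries were the closer together. The means were 233 ± 8.01 CPM and 176 ± 17.5 CPM (SD, n = 4 each). Phm fell by 0.41 on the log2 scale, or by 24.7% (SE 0.08, 95% interval −0.58 to −0.24, edgeR FDR = 0.00326).

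The direction of Phm held in all 8 fits that left out 1 library, from −0.47 to −0.36, but the call did not. The edgeR FDR was 0.0114 without wild-type replicate 2, 0.0129 without wild-type replicate 3, 0.0108 without Kdm5[140] replicate 1, 0.0106 without Kdm5[140] replicate 2 and 0.0121 without Kdm5[140] replicate 4. The fall was smaller than that of many other genes, and 33.0% of all tested genes had a larger log2 fold change in either direction.

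Pal1 (FBgn0033466), a peptidyl-α-hydroxyglycine-α-amidating lyase of the second step, lies on the plus strand of 2R (dm6, 9959549 to 9963853) with 8 exons. Wild-type libraries had 259.9, 239, 242 and 241 CPM. Libraries labelled Kdm5[140] had 182, 183, 207 and 176 CPM. As with Phm, the groups did not overlap, and Kdm5[140] replicate 3 came nearest to wild type in both genes. Pal1 fell by 0.39 on the log2 scale, or by 23.9% (SE 0.07, 95% interval −0.54 to −0.24, edgeR FDR = 0.00203). It kept its call in all 8 fits without 1 library (log2 fold change from −0.45 to −0.36). The means were 246 ± 9.56 CPM and 187 ± 13.7 CPM (SD, n = 4 each).

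Pal2 (FBgn0262728), the second lyase gene, lies on the plus strand of 2R (dm6, 23688077 to 23690838) with 6 exons, on the same arm as Pal1 and Phm. Wild-type libraries had 29.5, 42.5, 34.8 and 42.5 CPM. The Kdm5[140] libraries had 56.1, 70.3, 56.8 and 56.5 CPM. Every Kdm5[140] library lay above every wild-type library, opposite to Pal1, with Kdm5[140] replicate 2 the highest and wild-type replicate 1 the lowest. Pal2 was 1.60-fold higher, a log2 fold change of 0.68 (SE 0.13, 95% interval 0.39 to 0.97, edgeR FDR = 0.00368). The means were 37.4 ± 6.37 CPM and 59.9 ± 6.96 CPM (SD, n = 4 each).

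Without wild-type replicate 3 the log2 fold change of Pal2 was 0.65 (edgeR FDR = 0.0160) and without Kdm5[140] replicate 2 it was 0.60 (edgeR FDR = 0.0104), both past the threshold no longer, and the other 6 such fits kept the call. A larger log2 fold change in either direction was found in 18.7% of all tested genes.

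Exons of genes on the opposite strand overlap parts of these genes, and whether reads were counted by strand is not given in the sources used here. For Pal2 the overlap is 592 of 2304 exonic bases, with CG30183, which had 18.9 to 25.2 CPM in wild type and 18.1 to 20.1 CPM in Kdm5[140] (log2 fold change of −0.18, edgeR FDR = 0.209). The part of the overlapped bases in the value of Pal2 was not tested. For Pal1 it is 136 of 2992 exonic bases, with CG1418 and Pdrg1. CG1418 was also lower in Kdm5[140], from 14.8 to 16.9 CPM against 20.4 to 23.4 CPM. For Phm it is 3 bases.

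**Figure D2:**
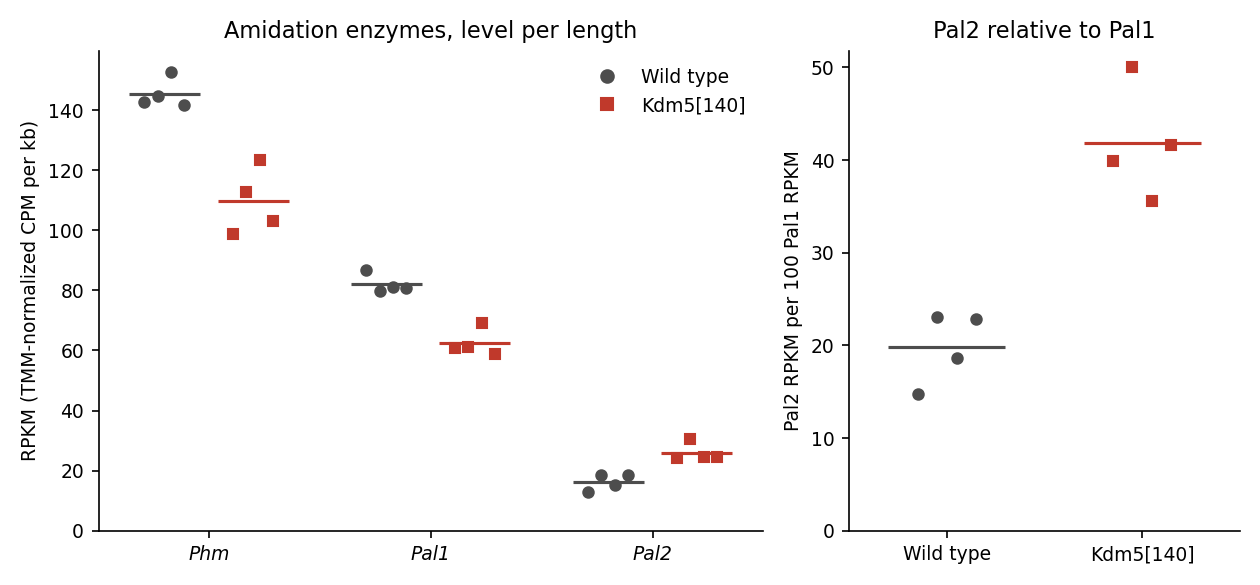
Left, level per length (RPKM) of the amidating enzymes in each wild-type (circles) and Kdm5[140] (squares) library, with lines at the means. Right, Pal2 per 100 RPKM of Pal1, which lies between 14.7 and 23.1 in wild type and between 35.6 and 50.0 in Kdm5[140].

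Because Pal1 and Pal2 moved in opposite directions, their proportion differed more than either level. Pal2 amounted to 14.7, 23.1, 18.7 and 22.9 RPKM per 100 RPKM of Pal1 in wild-type replicates 1 to 4. In the Kdm5[140] libraries it amounted to 39.9, 50.0, 35.6 and 41.7 RPKM per 100 RPKM of Pal1. The means were 19.9 ± 3.97 and 41.8 ± 6.04 (SD, n = 4 each), with a clear gap between the genotypes. The values that make up this ratio are those of the comparisons above, so it is no separate evidence.

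The proportion of Pal1 to Phm, by contrast, did not separate the genotypes. Pal1 amounted to 56.5 ± 3.34 RPKM per 100 RPKM of Phm in wild type and 57.2 ± 3.18 in Kdm5[140] (SD, n = 4 each), with overlapping groups. Summed over both lyases, Pal1 and Pal2 together had 99.7, 98.4, 96.1 and 99.2 RPKM in wild type and 85.3, 91.6, 93.9 and 83.4 RPKM in Kdm5[140]. The sum was thus lower in every Kdm5[140] library than in any of wild type, by a narrow gap (at most 93.9 against at least 96.1 RPKM). Pal1 made up most of it, with a wild-type mean of 82.1 RPKM beside 98.3 RPKM for the sum. The sum is therefore no separate evidence from the value of Pal1.

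Sur (FBgn0028675) encodes the sulfonylurea receptor, the regulatory subunit of ATP-sensitive potassium channels through which low sugar is read by AKH-producing cells. It is also known from the larval heart, which runs close to the gland. Its 23 exons lie on the minus strand of 2L. Wild-type libraries had 24.5, 23.7, 13.8 and 16.6 CPM. Libraries labelled Kdm5[140] had 16.5, 14.2, 15.1 and 21.9 CPM. Wild type held both the highest and the lowest library, and its replicates 1 and 2 stood above its replicates 3 and 4. The log2 fold change was −0.22 (SE 0.21, 95% interval −0.69 to 0.25, edgeR FDR = 0.458).

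**Figure D3:**
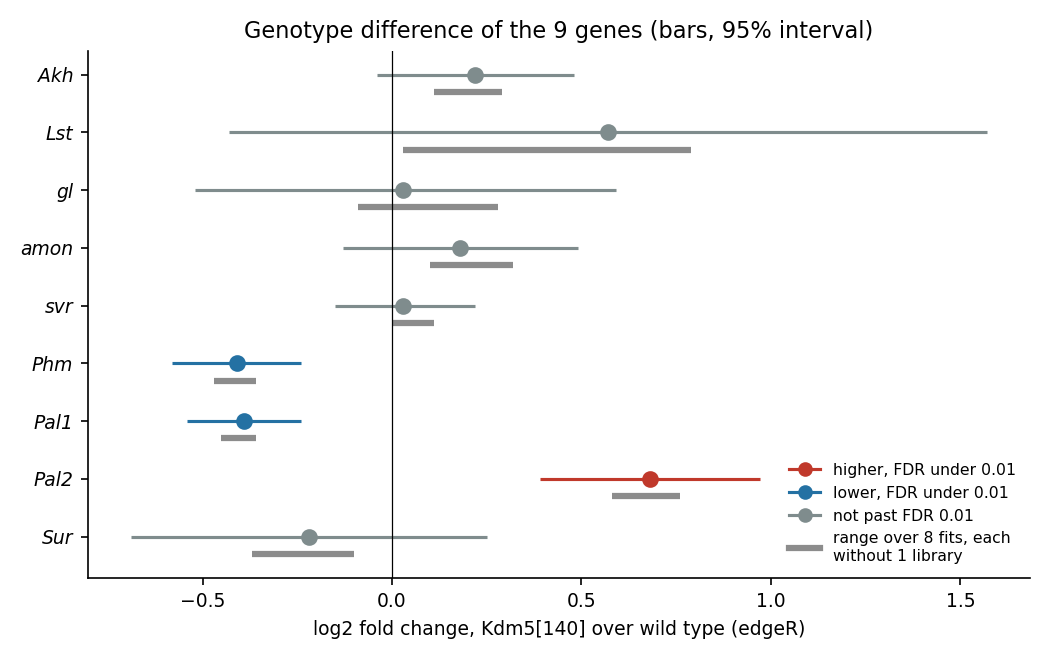
Log2 fold change of each gene, Kdm5[140] over wild type, with its 95% interval from edgeR (line through the point) and the range over the 8 fits without 1 library (grey bar below it). Phm and Pal1 lie below 0, Pal2 lies above 0, and the interval of Lst is the widest, from −0.43 to 1.57.

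The order of the mean levels per length in wild type was Akh, Phm, Pal1, svr, Pal2, Lst, amon, Sur and gl. In Kdm5[140] the order was the same except that Pal2 stood above svr, and the FPKM values of the deposited table gave the same order in each genotype. Akh, Phm and Pal1 were separated from each other and from the rest in every library. In wild type, svr (22.4 to 28.1 RPKM) lay above Pal2 (12.8 to 18.5 RPKM) without overlap. In Kdm5[140] these neighbours overlapped, with 23.5 to 26.9 RPKM for svr and 24.3 to 30.5 RPKM for Pal2. The lengths used include bases overlapped by exons on the other strand, 592 of 2304 for Pal2 and 817 of 8583 for svr. The part of these bases in the order of svr and Pal2 was not tested. Lst and amon overlapped in both genotypes, as did Sur and gl. The convertase amon thus stood at 8.07 ± 1.60 RPKM in wild type and 9.14 ± 0.999 RPKM in Kdm5[140] (SD, n = 4 each), far under the transcript of its known substrate Akh.

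**Figure D4:**
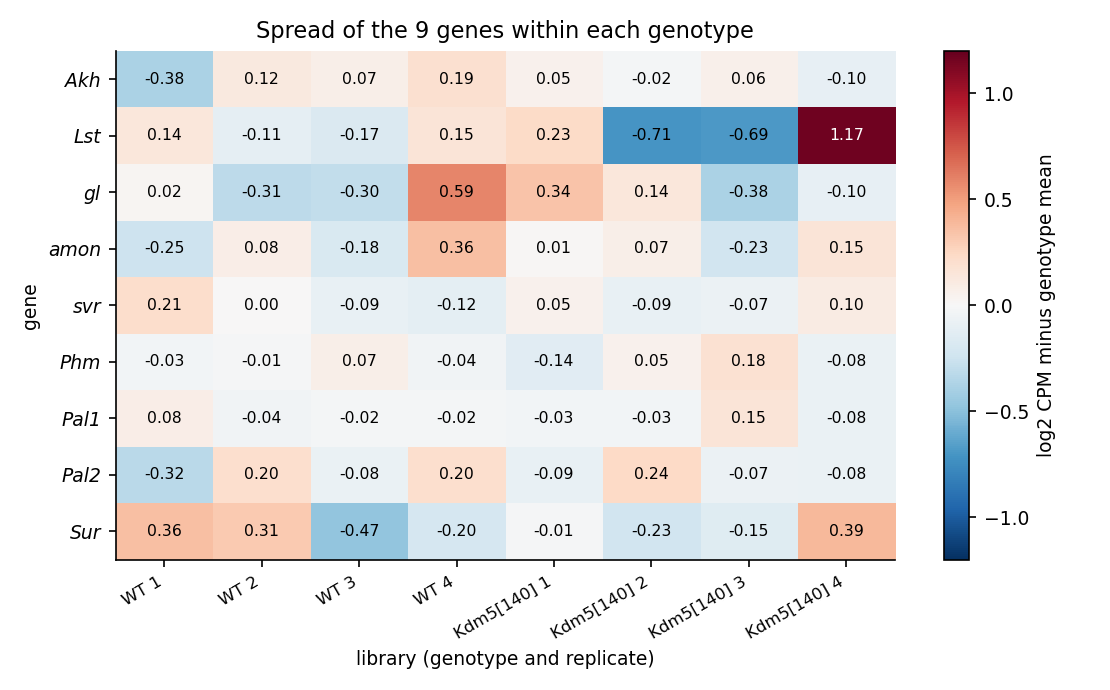
Log2 CPM of each gene in each library minus the mean of its genotype, with red above and blue below the mean. Lst varies most, from −0.71 to 1.17 within Kdm5[140], and wild-type replicate 1 is low in Akh (−0.38) and Pal2 (−0.32).

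Within genotypes, the 9 genes did not move as a block. Over the 8 libraries, after the genotype means were taken away, the median Pearson correlation of the 36 pairs of genes was −0.10, with 8 pairs above 0.5 and 7 below −0.5. The pairs share libraries and normalization, so these values are descriptions only. Akh and Lst had −0.24, Akh and gl 0.12, and Lst and gl 0.20, so the 3 markers of the corpus cardiacum did not rise and fall together between libraries. Phm and Pal1 had 0.65, and svr and Sur had 0.84. Akh had 0.72 with Pal2 and −0.83 with svr, and all 3 of these genes had their largest deviation in wild-type replicate 1 (−0.38 for Akh, −0.32 for Pal2 and 0.21 for svr).

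Of the 8838 tested genes whose mean reached 1 CPM, those most like Akh by this measure were CG12018 (r = 0.991), Incenp (0.982) and CG11030 (0.979), and 109 genes passed 0.9. For Lst they were nec (0.977), CG8032 (0.972) and CG30091 (0.971), with 26 genes past 0.9. For gl they were Taf4 (0.961), rdo (0.952) and mus201 (0.941), with 28 genes past 0.9. None of the 9 genes was among the 3 most like Akh, Lst or gl. These values, too, are descriptions over 8 libraries that share their normalization. The largest deviation was −0.38 for Akh (wild-type replicate 1), 1.17 for Lst (Kdm5[140] replicate 4) and 0.59 for gl (wild-type replicate 4). A high r can thus rest largely on 1 library.

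Genes that work beside the 9 were taken from 4 lists of related genes, 53 genes in all, of which 50 were tested and 13 called, 7 higher and 6 lower, beside the 7.91% of all tested genes called higher, 9.62% called lower and a median log2 fold change of 0.02 over all tested genes. Leaving out 1 library gave from 6 to 14 calls. The count was 6 without wild-type replicate 2, wild-type replicate 3 or Kdm5[140] replicate 1, 7 without Kdm5[140] replicate 4 and 8 without Kdm5[140] replicate 2. Calls of nemy, Atox1, Snap25, unc-13, AMPKalpha and slo held in all 8 fits. Those of the other 7 were all lost without wild-type replicate 2, without wild-type replicate 3 and without Kdm5[140] replicate 1. Of these 7, Fur2, Ctr1A, Spase18-21, AstA-R2 and Ca-alpha1D also lost their calls without Kdm5[140] replicate 2, and each of the 7 except AstA-R2 without Kdm5[140] replicate 4. Ctr1A and Ca-alpha1D lost theirs without wild-type replicate 1, Ctr1A and AstA-R2 without wild-type replicate 4, and Ctr1A without Kdm5[140] replicate 3. The highest edgeR FDR of any of the 7 in these fits was 0.0247.

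**Figure D5:**
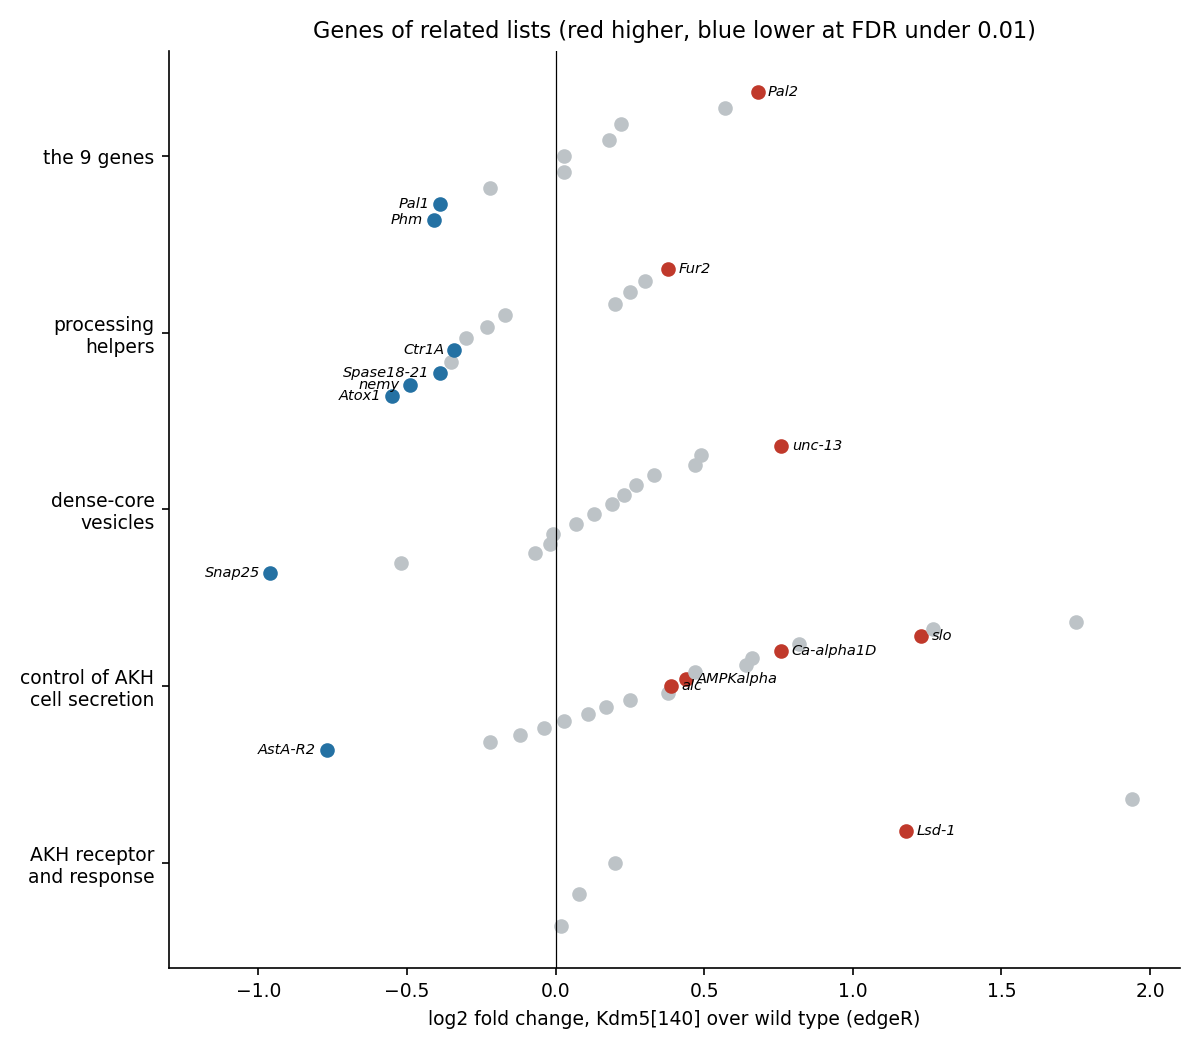
Log2 fold change, Kdm5[140] over wild type, of the 9 genes and of the tested genes of each related list, 1 point per gene, with red for higher and blue for lower at an edgeR FDR under 0.01 and grey for genes not past it. Called processing helpers lie mostly below 0, and called genes for the control of AKH cell secretion mostly above 0.

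Among 13 helpers of prohormone processing, 12 were tested, 4 were called lower and 1 higher, with a median log2 fold change of −0.27. Of those known to serve amidation, nemy, a cytochrome b561 that keeps ascorbate reduced inside vesicles, had 54.9 to 64.0 CPM in wild type and 38.2 to 46.1 CPM in Kdm5[140]. It fell by 0.49 on the log2 scale (SE 0.08, edgeR FDR = 0.00137). Atox1, a copper chaperone, had 89.6 to 99.7 CPM in wild type and 58.1 to 74.7 CPM in Kdm5[140], and fell by 0.55 (SE 0.08, edgeR FDR = 0.00116). In both genes every wild-type library lay above every Kdm5[140] library.

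Ctr1A, a copper importer of the plasma membrane, fell by 0.34 (SE 0.08, edgeR FDR = 0.00926), from 53.6 to 56.6 CPM in wild type against 36.9 to 46.7 CPM in Kdm5[140], a call lost in every fit without 1 library (edgeR FDR up to 0.0239), with the replicate number as a block (edgeR FDR = 0.0170), with protein-coding genes alone (edgeR FDR = 0.0109) and with a filter at 5 CPM (edgeR FDR = 0.0145). The copper pump ATP7, which loads the secretory pathway, had a log2 fold change of 0.20 and was not called. These genes serve many other copper and redox proteins as well, in all cells of the gland.

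Spase18-21, the catalytic subunit of the signal peptidase that removes the signal peptide of every secreted precursor, fell by 0.39 (SE 0.08, edgeR FDR = 0.00484), from 220.1 to 267 CPM in wild type against 167 to 200.2 CPM in Kdm5[140]. Exons of agt on the other strand overlap 379 of its 855 exonic bases, and agt stayed under 7 CPM. Spase22-23 stood at −0.35 on the log2 scale (edgeR FDR = 0.0167) and Spase25 of −0.30, neither called, and Spase12 had no count in any library. All 493 exonic bases of Spase12 are overlapped by CG2006 on the other strand, so its count of 0 does not show that it was not expressed. Fur2, a furin-type convertase, was the 1 helper called higher (log2 fold change of 0.38, SE 0.07, edgeR FDR = 0.00411), at 166 to 194 CPM in wild type and 215 to 246 CPM in Kdm5[140], but it missed the threshold with an offset for gene length (0.25, edgeR FDR = 0.0167). 7B2, the helper protein of amon, stood at 0.30 on the log2 scale (edgeR FDR = 0.134), and QC, which closes the N-terminal pyroglutamate of peptides such as AKH, had 0.25, both with overlapping groups.

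Of 14 genes for dense-core vesicles and their release, all tested, 1 was called higher and 1 lower, with a median of 0.16. Snap25, a SNARE protein of regulated exocytosis, had 149, 141, 109 and 166 CPM in wild type and 65.8, 68.8, 81.9 and 73.7 CPM in Kdm5[140]. It fell by 0.96 on the log2 scale, a 1.94-fold lower level (SE 0.12, edgeR FDR = 0.000483). Its near relative Snap24 had a log2 fold change of 0.13 and was not called. unc-13, which primes vesicles for fusion, was higher by a log2 fold change of 0.76 (SE 0.10, edgeR FDR = 0.000409), with 227 to 298 CPM in wild type and 414 to 496 CPM in Kdm5[140]. Antisense RNAs and transposable elements on the other strand together overlap 5775 of the 22598 exonic bases of unc-13. Transposable elements on its own strand overlap 1356 bases. The most abundant of the antisense RNAs, CR44029, was higher too (30.4 to 49.9 CPM against 58.2 to 74.3 CPM), so the value of unc-13 is uncertain. dimm, the master regulator of peptidergic cells, was low in both genotypes (1.63 to 2.41 CPM) with a log2 fold change of −0.02.

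The list for the control of AKH cell secretion held 20 genes, of which 19 were tested, 4 called higher and 1 lower, with a median of 0.39. Without wild-type replicate 2, wild-type replicate 3 or Kdm5[140] replicate 1, the list had 2 genes called higher and 0 called lower. Over all tested genes 7.91% were called higher and 9.62% lower, with a median of 0.02. AMPKalpha, the catalytic subunit of the energy sensor AMP-activated kinase, was higher (log2 fold change of 0.44, SE 0.07, edgeR FDR = 0.00117), at 132 to 145 CPM in wild type and 166 to 195 CPM in Kdm5[140]. alc, the β subunit of that kinase, was higher as well (0.39, SE 0.07, edgeR FDR = 0.00301), at 62.8 to 75.5 CPM and 85.0 to 93.0 CPM, but missed the threshold with an offset for gene length (edgeR FDR = 0.0110). The γ subunit gene SNF4Agamma stood at 0.17 on the log2 scale (edgeR FDR = 0.161).

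Of the ion channel genes, slo, a calcium-activated potassium channel, had 6.09, 6.73, 4.94 and 7.89 CPM in wild type and 15.9, 17.5, 12.2 and 14.6 CPM in Kdm5[140]. It was 2.35-fold higher (log2 fold change of 1.23, SE 0.17, edgeR FDR = 0.000654). Ca-alpha1D, an L-type calcium channel, was higher too (0.76, SE 0.17, edgeR FDR = 0.00705), at 8.12 to 12.0 CPM and 14.1 to 20.0 CPM, a call that 6 of 8 fits without 1 library lost (edgeR FDR up to 0.0247). The pore subunits that pair with Sur were not called, with log2 fold changes of −0.12 for Irk1, 1.75 for Irk2 (edgeR FDR = 0.0215, at most 1.64 CPM) and −0.04 for Irk3.

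AstA-R2, a receptor for allatostatin A, was the 1 gene of the list called lower, with 18.3, 21.6, 20.1 and 23.8 CPM in wild type and 14.0, 10.8, 9.18 and 15.1 CPM in Kdm5[140]. It fell by 0.77 on the log2 scale (SE 0.16, edgeR FDR = 0.00558), and lost its call in 5 of 8 fits without 1 library (edgeR FDR up to 0.0204). The 7 neuron markers summed to 169 to 262 CPM in wild type and 218 to 335 CPM in Kdm5[140], with 7 of 7 log2 fold changes above 0 and elav alone called (0.39, edgeR FDR = 0.00495, and 0.0337 with an offset for gene length). The call of elav was also lost without wild-type replicate 2 or 3 or Kdm5[140] replicate 1 or 2 (edgeR FDR up to 0.0172). The channels and release genes above are also neuronal, and the part of neurons attached to the glands in these values was not tested.

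Of 6 genes for the AKH receptor and its response, 5 were tested and 1 was called. Lsd-1, a perilipin of lipid droplets acted on by AKH signaling in the fat body, was 2.26-fold higher (log2 fold change of 1.18, SE 0.21, edgeR FDR = 0.00365), at 28.2 to 62.6 CPM in wild type and 92.9 to 112 CPM in Kdm5[140]. The call was lost with the replicate number as a block (edgeR FDR = 0.0142). The 6 fat body markers had a median log2 fold change of 1.01, with 5 of 6 values above 0 and none called, and their part in the Lsd-1 value was not tested. AkhR, the AKH receptor, had 0.412 to 0.775 CPM in wild type and 1.28, 0.883, 0.363 and 5.33 CPM in Kdm5[140]. Its highest value was in Kdm5[140] replicate 4, which also had the highest Lst level and the highest summed level of the fat body markers. The lipase genes bmm and Hsl had log2 fold changes of 0.20 and 0.08 and were not called.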

How the data were processed

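The authors aligned reads to dm6 with HISAT2 2.0.5 and counted them on genes with featureCounts 1.5.0-p3, and whole-number counts per gene were deposited. The deposited table also holds FPKM values, used only for the order of levels, and the authors' mean signal per genotype, log2 fold changes and p-values from DESeq2 1.20.0, which were not used. The 9 genes, the gene lists and the tests were chosen with earlier results of these data known.

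Counts were compared with edgeR 4.0.16 in R 4.3.3 (TMM normalization, filterByExpr, robust quasi-likelihood test, Benjamini-Hochberg adjustment over 9317 genes, FDR threshold 0.01 as in the paper). RPKM is TMM-normalized CPM per kb of the deposited gene length. Alternatives were DESeq2 1.42.0, limma 3.58.1 (voom), RLE or upper-quartile factors, other low-count filters, a restriction to protein-coding genes, an offset for gene length, a block on the replicate number, an FDR of 0.05 and the omission of each library. The rule for named genes took the 9 genes, lid, up to 6 called genes of each list by FDR, tissue markers and the 3 genes most like Akh, Lst and gl. Other genes of the lists were named after their values were seen. The edgeR fit was tested on simulated counts. No pair of libraries of a genotype agreed within sampling noise (chi-square per degree of freedom from 10.6 up). No source says that pools came from separate cultures, so p-values measure only the spread between pools. Exon overlaps come from the Ensembl annotation of the same build.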

Additional observations from a re-analysis of the deposited data

Results flagged for a closer look

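Over the 9 genes and both genotypes, 18 groups of 4 libraries were examined for a library far from the other 3, a rule that chance meets in about 1 of 20 groups. Pal1 in wild-type replicate 1 had 259.9 CPM, where the nearest other wild-type library had 242 CPM, a gap of 0.844 of the group's range. Pal2 in Kdm5[140] replicate 2 had 70.3 CPM, where the nearest other library of that label had 56.8 CPM, a gap of 0.949 of the range. Both values lie on the side away from the other genotype. Without wild-type replicate 1 the log2 fold change of Pal1 was −0.37 (edgeR FDR = 0.00263). Without Kdm5[140] replicate 2 that of Pal2 was 0.60 and past the threshold no longer (edgeR FDR = 0.0104).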

How the results depend on the processing

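Phm, Pal1 and Pal2 were the genes called among the 9, with the same directions, in each of the 10 alternatives that kept all libraries. In the 8 fits without 1 library, the log2 fold change of Phm ran from −0.47 to −0.36 and that of Pal2 from 0.58 to 0.76, with calls kept in 3 and 6 fits, and Pal1 kept its call in all 8. gl reversed with an offset for gene length (−0.06) and ran from −0.09 to 0.28 without 1 library. svr reversed with the length offset (−0.10). Over all tested genes, 1633 were called, 2875 at an FDR of 0.05, 2441 with DESeq2 and 960 to 1827 without 1 library. The length offset called 1777, of which 67.8% were lower in place of 54.9%. The related lists had 6 to 14 calls without 1 library. Why calls were lost without 1 library was not tested.

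Same-numbered libraries had correlations of deviations of 0.0727, 0.116, 0.189 and −0.117. Libraries of different numbers had values from −0.255 to 0.173. These values do not decide whether the replicate numbers pair the libraries. With the replicate number as a block, 1617 genes were called, 1358 of them shared with the unblocked fit, and among the 9 genes the same 3 were called. The depth limits gl most, with 84 to 183 counts per library.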
